A study of Mus musculus with 12 samples.

Results

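The miR-30 family was followed through osteoclast formation in culture. Its members here are the 5 guide strands mmu-miR-30a, mmu-miR-30b, mmu-miR-30c, mmu-miR-30d and mmu-miR-30e, chosen by name among the 696 mouse miRNAs of the array, of which 334 were detected on at least 1 array. Bone marrow came from C57BL/6 male mice aged 6-8 weeks. Cells positive for B220/CD45R or CD3, which mark B and T lymphocytes, were removed, and the remaining cells were grown with M-CSF (30 ng/ml), the growth factor that keeps osteoclast precursors alive, and RANKL (30 ng/ml), the cytokine that turns them into osteoclasts. All samples carried the same treatment and differed in its length, and 4 independent cultures each were taken at days 1, 3 and 5, with 1 array per culture and 12 arrays in all. There was no culture without RANKL, so time in culture and length of RANKL treatment cannot be told apart. The earliest time point is 1 day into the treatment.

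A miRNA pairs with its target messenger RNAs mainly through bases 2 to 8, the seed, and reduces their stability and translation. The miR-30 guide strands share 1 seed and so are predicted to reach overlapping sets of targets. In bone the family is best known in the osteoblast lineage, where members restrain differentiation by acting on Runx2, the master transcription factor of osteoblasts, and on Smad1, a transducer of BMP signals. In breast tumor cells miR-30 has been reported to act on integrin beta 3, a subunit of the receptor with which osteoclasts hold on to bone.

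RefSeq (GRCm38.p6) gave the mature sequences of 3 of the 5 members. They are shown because the members can be told apart only by the bases outside the seed. Capitals mark the seed, GUAAACA.
mmu-miR-30a: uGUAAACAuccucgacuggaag
mmu-miR-30c: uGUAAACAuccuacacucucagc
mmu-miR-30e: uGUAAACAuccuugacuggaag
With positions counted from 1 at the 5′ end, miR-30a and miR-30e differed by the substitution C13U alone, while miR-30a and miR-30c differed by C13A, G14C, G18C, G19U and A20C. The longest probes of miR-30a and miR-30e covered bases 6 to 22 of the miRNA, so position 13 was the only place where these probes could tell one from the other. The share of signal that crosses between them was not measured here.

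The members lie in the genome as close neighbors. By the positions the array files give for their probes in mm9, miR-30a (chr1:23279119-23279134, plus strand) and 1 copy of miR-30c (chr1:23298558-23298575, plus strand) spanned 19457 bases. The other copy of miR-30c (chr4:120442160-120442177, minus strand) and miR-30e (chr4:120445233-120445248, minus strand) spanned 3089 bases. Finally, miR-30b (chr15:68169003-68169018, minus strand) and miR-30d (chr15:68172790-68172802, minus strand) spanned 3800 bases. In the RefSeq gene table of GRCm38.p6 the chromosome 4 genes, Mir30c-1 and Mir30e, lie within the bounds of Nfyc, which codes for a subunit of the transcription factor NF-Y. The array reads the mature miR-30c, and signals from its 2 genes cannot be told apart.

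All 5 members were detected on all 12 arrays, and none of their spots was saturated. Between 186 and 276 miRNAs were detected per array, with the fewest on day 5 replicate 4, and a detected miRNA typically (median) gave 6.71 to 16.5 times the local background. Days 1 and 5 shared slide 1 and its scan, whereas day 3 was on slide 2, so that day 3 and the slide cannot be told apart and day 5 against day 1 is the comparison within 1 slide. The summed miRNA signal was lower at day 3 (58.6% of day 1) and at day 5 (80.7% of day 1). As in the paper, array signals were quantile normalized, which gives every array the same distribution of values. Normalized values are on the log2 scale, where a difference of 1 is 2-fold. In bulk RNA, more cells that carry a miRNA and more of it per cell cannot be told apart. Some markers of other marrow cells moved over the same days. The summed normalized signal of the 2 erythroid markers on the array was 25488 to 38092 at day 1 and 135 to 267 at day 5, and that of the 5 stromal markers was 436 to 666 at day 1 and 2600 to 3630 at day 5. At day 5 miR-144 (erythroid), miR-150 (lymphoid), miR-126-3p (megakaryocytic) and miR-145 (stromal) were not detected on any array. Of these, miR-145 had been detected on only 1 array, at day 1. The day 5 against day 1 contrasts of miR-145 and miR-150 were not called (limma, adjusted p = 0.918 and 0.067). Of the 3 lymphoid markers, 2 were detected on all 4 day 5 arrays. The lymphoid sums overlapped, with 1840 to 2758 at day 1 and 1626 to 2230 at day 5. The 4 myeloid markers were detected on all arrays at every day, with sums of 167639 to 188590 at day 1 and 166078 to 178748 at day 5. These sums come mostly from the brightest miRNAs, whose values quantile normalization keeps nearly equal between arrays. They therefore cannot show whether the myeloid share was steady. The part of any of these cell types in the miR-30 values was not tested.

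After quantile normalization, all 5 members rose over the time course. Each passed the moderated F test over the 3 days (limma, adjusted p under 0.01), as did 62.9% of the 334 miRNAs tested and 73% of the 148 detected on all arrays. Only miR-30a also differed by more than 2-fold between 2 days, beside 46.7% of the miRNAs tested, and other filters and scalings put 0 to 2 members past this size. At day 5 all 5 members were above day 1 and passed the limma contrast, a call made for 31.7% of the miRNAs tested and for 43.2% of those detected on all arrays. The count of 5 was 2 to 4 under 4 other scalings (2 by the 75th percentile, 1 by the median, 1 by the summed signal) and 2 without normalization. The median change of the members from day 1 to day 5 was 0.74, beside 0.11 over all miRNAs tested and 0.36 over the 148 detected on all arrays. Within the 148, miR-30a ranked 25th from the largest rise and miR-30c ranked 68th. The other 3 members ranked 48th (miR-30b), 51st (miR-30d) and 52nd (miR-30e), so that none was among the leaders. All 5 lay above the median of the 148 (0.36), with miR-30c (0.44) close to it.

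**Figure D1:**
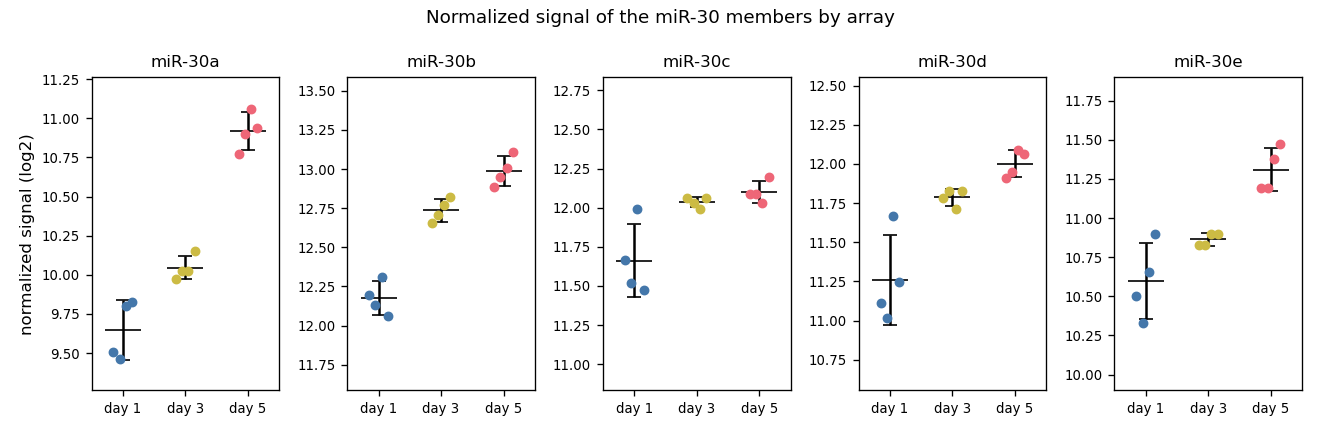
Normalized signal (log2) of each miR-30 member at days 1, 3 and 5, with 1 point per array (n = 4 per day), a line for the mean and bars for the SD; each panel spans 2 log2 units. In all 5 panels the day 5 points lie above the day 1 points, and miR-30a has the widest distance, 1.27.

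The strongest change was that of miR-30a, encoded upstream of the miR-30c copy on chromosome 1. Its normalized log2 values were 9.51, 9.46, 9.80 and 9.83 at day 1, 9.98, 10.03, 10.03 and 10.15 at day 3, and 10.77, 10.90, 11.06 and 10.94 at day 5. The 3 days did not overlap, and most of the rise fell after day 3. From day 1 to day 5 miR-30a rose by 1.27 ± 0.10 (SE) on the log2 scale, or 2.41-fold (adjusted p = 1.24e-06, exact two-sided permutation p = 0.0286, the smallest that 4 against 4 arrays allow). The difference of day 5 from day 3 was 0.87 (adjusted p = 0.000153) and that of day 3 from day 1 was 0.40 (adjusted p = 0.00700). The call at day 3 was lost under all 4 other scalings (0.24 to 0.31, adjusted p of 0.0186 to 0.132), without a filter, and without any 1 of 7 arrays (day 1 replicates 1 and 2, all of day 3, day 5 replicate 2, 0.33 to 0.42). Its 3 probes gave day 5 against day 1 changes of 1.16 to 1.52. Unnormalized total signals also rose, from 1040 ± 128 at day 1 to 1776 ± 187 at day 5 (SD, n = 4), without overlap.

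Next came miR-30b, which shares its place on chromosome 15 with miR-30d. Its normalized log2 values were 12.20, 12.13, 12.31 and 12.06 at day 1, 12.65, 12.70, 12.77 and 12.82 at day 3, and 12.88, 12.95, 13.00 and 13.11 at day 5. Again the 3 days did not overlap, but here most of the rise lay between days 1 and 3. By day 5 it had risen over day 1 by 0.81 ± 0.079 (SE), or 1.75-fold (adjusted p = 5.02e-06), with 0.56 of this by day 3 (adjusted p = 0.000128), a call that 2 of the 4 other scalings kept. The step from day 3 to day 5, 0.25, did not pass the test (adjusted p = 0.0315). Unnormalized signals were 5936 ± 1324 at day 1 and 9667 ± 835 at day 5 (SD, n = 4) and did not overlap. Among the day 1 arrays, replicate 4 was the lowest for miR-30b (4231) and for miR-30c (3322), but not for the other 3 members.

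The neighbor miR-30d gave normalized log2 values of 11.11, 11.02, 11.67 and 11.25 on the day 1 arrays, 11.78, 11.83, 11.71 and 11.83 at day 3, and 11.91, 11.95, 12.09 and 12.06 at day 5. The days did not overlap, and the day 1 arrays were the most spread (SD 0.29), with replicate 3 the highest. The day 5 mean exceeded that of day 1 by 0.74 ± 0.13 (SE), or 1.67-fold (adjusted p = 0.000379). It was 0.52 from day 1 to day 3 (adjusted p = 0.00460, lost under all 4 other scalings, with detection on all 12 arrays, and without replicate 1, 2 or 4 of day 1 or of day 3, 0.44 to 0.53) and 0.22 from day 3 to day 5 (adjusted p = 0.256).

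Values of miR-30e, the chromosome 4 member with a sequence 1 base from that of miR-30a, were 10.50, 10.33, 10.66 and 10.90 at day 1, 10.83, 10.83, 10.90 and 10.90 at day 3, and 11.19, 11.19, 11.38 and 11.47 at day 5. Days 1 and 3 overlapped, and day 5 was above both. Over the whole course miR-30e rose by 0.71 ± 0.12 (SE), or 1.64-fold (adjusted p = 0.000311). This call was lost under all 4 other scalings (0.023 to 0.37, adjusted p of 0.0174 to 0.878) and without normalization (0.033). The 2 shorter intervals missed the threshold, with 0.27 from day 1 to day 3 (adjusted p = 0.0742) and 0.45 from day 3 to day 5 (adjusted p = 0.0141). Unnormalized signals of 2215 ± 343 at day 1 and 2272 ± 403 at day 5 (SD, n = 4) overlapped.

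The smallest change was that of miR-30c, the member with 2 genes. Its normalized log2 values were 11.67, 11.52, 11.99 and 11.47 at day 1, 12.06, 12.03, 11.99 and 12.06 at day 3, and 12.09, 12.09, 12.03 and 12.20 at day 5. Day 5 lay just above the highest day 1 array, and days 3 and 5 overlapped. Its rise over the whole course was 0.44 ± 0.11 (SE), or 1.36-fold (adjusted p = 0.00400). This call was lost without day 1 replicate 1, 2 or 4 or day 5 replicate 2 or 4 (changes of 0.38 to 0.44, highest adjusted p = 0.0131) and with the arrays of slide 1 normalized alone (0.44, adjusted p = 0.0209). It was also lost with the replicate number as a block (adjusted p = 0.0125), in 3 of the 4 other scalings (adjusted p = 0.851, 0.0460 and 0.0455) and without normalization (adjusted p = 0.906). Between days 1 and 3 the difference was 0.37 (adjusted p = 0.0110), and between days 3 and 5 it was 0.065 (adjusted p = 0.740). The unnormalized mean was 4616 ± 1021 at day 1 and 4624 ± 435 at day 5 (SD, n = 4).

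**Figure D2:**
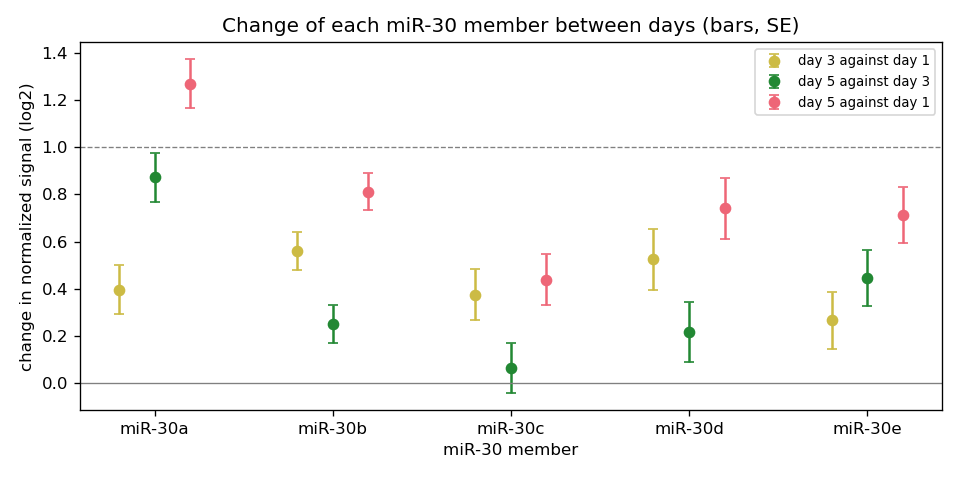
Change in normalized signal (log2) of each miR-30 member for the 3 pairs of days, with the SE from limma as bars and the 2-fold line dashed. The day 5 against day 1 change of miR-30a (1.27) is the one point above the dashed line, and that of miR-30c (0.44) is the lowest of the 5.

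Day 3 against day 1 was called for 3 members (miR-30a, miR-30b and miR-30d), all higher at day 3 with quantile normalization but all lower without normalization (miR-30a also lower, by 0.035, with the filter of detection on all 12 arrays), beside 27.2% of the miRNAs tested and 39.2% of those detected on all arrays. Day 5 against day 3 was called for miR-30a alone, beside 14.7% of the miRNAs tested and 20.3% of those detected on all arrays. The median change of the members was 0.40 in the first interval and 0.25 in the second, where the medians over all miRNAs tested were 0.18 and 0.00 and those over the 148 detected on all arrays 0.27 and 0.054.

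How much the members rose depended on how the arrays were scaled, and the direction of the day 3 change depended on it as well. Scaling each array to the 75th percentile of the 148 well detected miRNAs moved the median day 5 against day 1 change of the same miRNAs from 0.36 to -0.039. With it miR-30a and miR-30b still passed the test with changes of 0.76 and 0.72, while miR-30d changed by 0.38 (adjusted p = 0.0101), and miR-30c and miR-30e by 0.017 and 0.023 (adjusted p = 0.851 and 0.878). Without any normalization the changes of miR-30a to miR-30e from day 1 to day 5 were 0.77, 0.73, 0.026, 0.39 and 0.033 in that order. At day 3 every member was below day 1 when no normalization was applied, by 0.33 (miR-30b) to 0.88 (miR-30e), in the direction of the lower summed signal on slide 2. Under all 28 alternatives tried, miR-30a had the largest change from day 1 to day 5 among the 5 members and miR-30c the smallest. These are not independent checks, since several leave the changes as they were. The other scalings and no normalization share the same differences between members. In these, miR-30a minus miR-30b was 0.045 ± 0.12 (SE) and miR-30c minus miR-30e was -0.0065 ± 0.16, so both ends of the order lay within the SE. With the arrays of slide 1 normalized alone, the changes of miR-30a, miR-30b, miR-30d and miR-30e were 1.31, 0.80, 0.74 and 0.69, and all 4 passed the test.

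**Figure D3:**
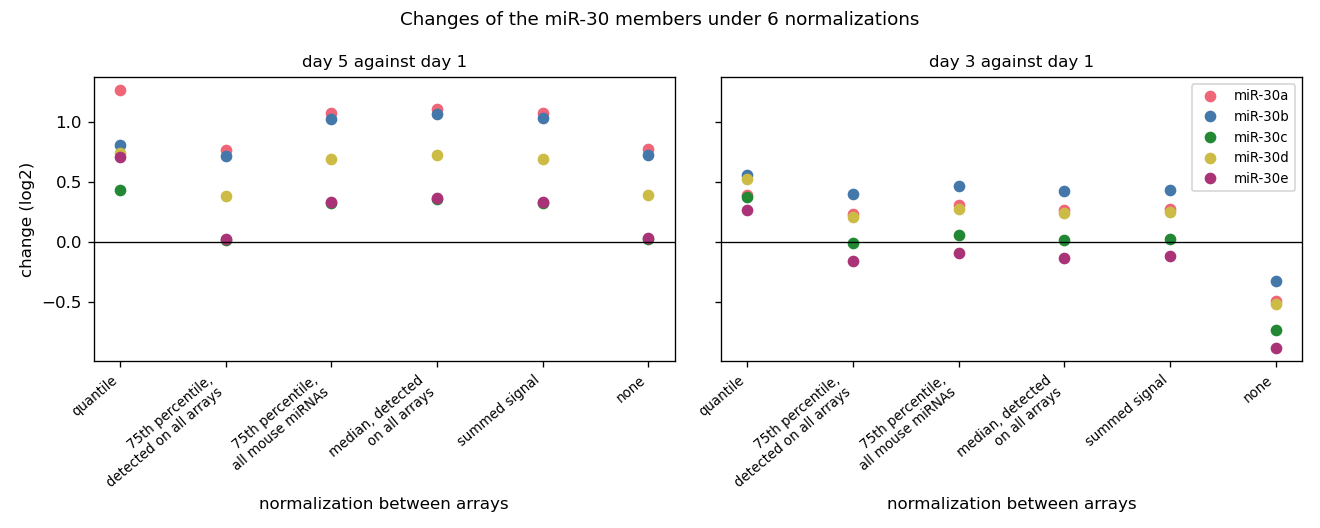
Change (log2) of the 5 members, one color each, from day 1 to day 5 (left) and from day 1 to day 3 (right) under 6 normalizations between arrays. On the left miR-30a and miR-30b stay above 0.7 throughout, while miR-30c and miR-30e come down to between 0.017 and 0.033 in 2 of the 6. On the right, all 5 fall below 0 without normalization.

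**Figure D4:**
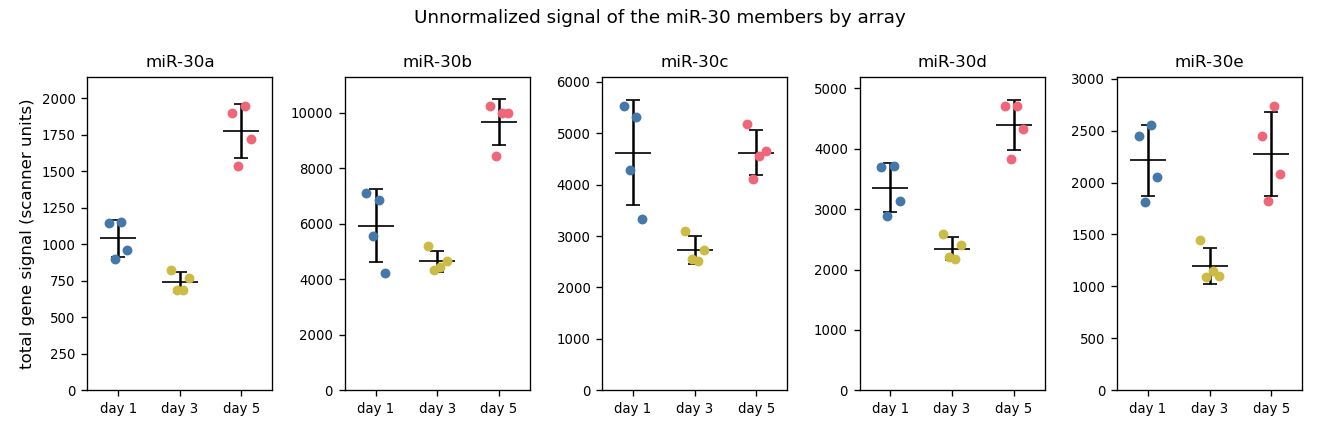
Unnormalized total gene signal (scanner units, axes from 0) of each member by day, with 1 point per array (n = 4 per day), a line for the mean and bars for the SD. The day 5 arrays of miR-30a, miR-30b and miR-30d lie above their day 1 arrays, those of miR-30c and miR-30e overlap them, and the means of day 3 are the lowest in all 5 panels.

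The members were then compared with each other within arrays, as the difference of their log2 signals. This was done for 10 pairs of members in 3 intervals, with exact two-sided permutation tests and p-values adjusted over the 30 comparisons. In quantile normalized values the arrays of the 2 days did not overlap in 16 of the 30 comparisons, 6 of them for day 5 against day 1, but none passed an adjusted p under 0.05. The 16 had an adjusted p of 0.0536 from the smallest p of this design, 0.0286, and at least 18 such comparisons would have been needed for any to pass. A common scale factor for an array cancels in such a difference, so the unnormalized signals and the 4 scalings gave 1 answer, in which 20 of the 30 comparisons passed (adjusted p = 0.0429). Pairs of other miRNAs were not compared in this way. Whether the counts of 16 and 20 are particular to the family was therefore not tested.

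From day 1 to day 5 miR-30a rose more than miR-30c by 0.83 ± 0.15 (SE) in quantile normalized values and by 0.75 ± 0.13 in unnormalized ones, although both have a gene at the same place on chromosome 1. It rose more than miR-30e, the closer to it of the other members whose sequences are shown, by 0.56 ± 0.076 and 0.74 ± 0.062. It also rose more than miR-30d, by 0.53 ± 0.097 and 0.38 ± 0.014. In these 3 pairs the arrays of the 2 days did not overlap on either scale. The same held for miR-30b minus miR-30c, at 0.37 ± 0.077 and 0.70 ± 0.033.

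Of the other pairs that share a place, the chromosome 15 neighbors miR-30b and miR-30d differed by 0.071 ± 0.12 with quantile normalization, where the arrays overlapped, and by 0.34 ± 0.13 without it, where they did not. The chromosome 4 neighbors miR-30c and miR-30e differed by -0.27 ± 0.18 with quantile normalization and by -0.0065 ± 0.16 without it, and overlapped on both. The difference between miR-30a and miR-30b was 0.46 ± 0.12 and 0.045 ± 0.12, with overlap in the unnormalized values alone.

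**Figure D5:**
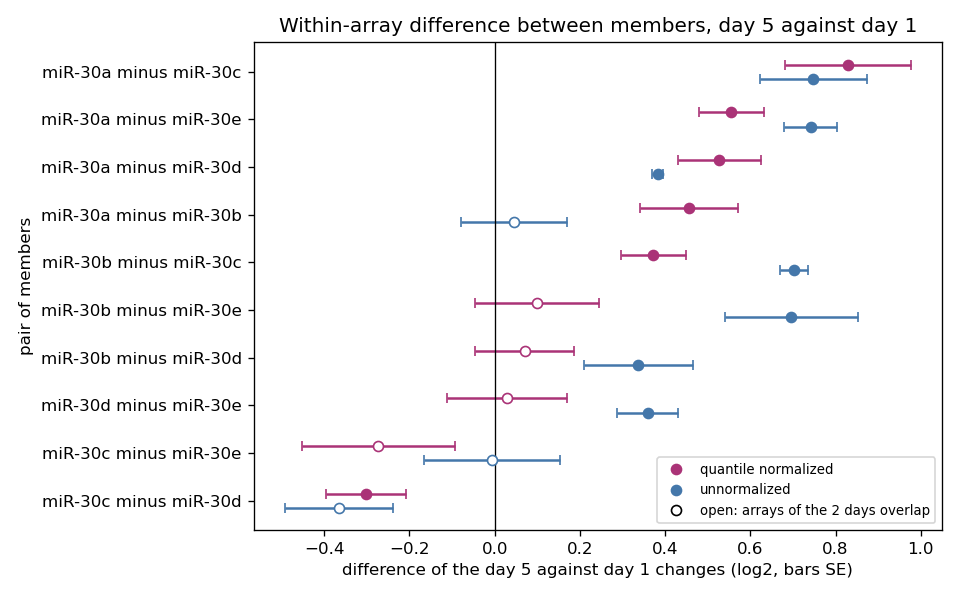
Difference between 2 members in their day 5 against day 1 change (log2, bars SE, n = 4 arrays per day), computed within arrays from quantile normalized and from unnormalized signals, with open points where the arrays of the 2 days overlap. The difference of miR-30a from miR-30c is the largest on both scales (0.83 and 0.75), and 5 pairs are filled on one scale and open on the other.

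The passenger strands, which come from the other arm of the same hairpins and are mostly degraded, were near background with 1 exception. Their sequences are shown because miR-30a* and miR-30e* share a seed, as do miR-30c-1* and miR-30c-2*, and neither seed is that of the guides. Capitals mark bases 2 to 8.
mmu-miR-30a*: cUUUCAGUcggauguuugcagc
mmu-miR-30e*: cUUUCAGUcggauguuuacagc
mmu-miR-30c-1*: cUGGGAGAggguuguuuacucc
mmu-miR-30c-2*: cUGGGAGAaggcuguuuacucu
Detected on all 12 arrays, miR-30e* gave 323 ± 73.7 signal units at day 1, which went to 234 ± 21.7 at day 3 and 364 ± 55.3 at day 5 (SD, n = 4, unnormalized). After normalization day 5 exceeded day 1 by 0.41 ± 0.13 (SE), which did not pass (adjusted p = 0.0143). The guide miR-30e changed by more than miR-30e* in this interval by 0.30 ± 0.21, with an exact permutation p of 0.229 (0.343 adjusted over the 3 intervals). From day 3 to day 5 the guide changed by more by 0.44 ± 0.17 without overlap (exact permutation p = 0.0286, adjusted 0.0857).

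Both passengers of miR-30c were detected on all 4 arrays of day 1 and on few later. The unnormalized signals of miR-30c-2* were 178, 209, 110 and 143 at day 1, against 1.1 to 18.5 at day 3 and -78.1 to 17.4 at day 5, where no array detected it. At day 5 it was at least 4.38-fold lower and at day 3 at least 3.86-fold lower than at day 1. These are bounds on normalized values, with the dim day set on each array to the higher of its own value and the lowest detected signal. The limma contrasts were made on the normalized values with their floor, not on these bounds. They gave adjusted p of 0.00560 for day 5 and 0.0118 for day 3, the second of which missed the threshold of 0.01. For miR-30c-1* the day 1 signals were 70.3 to 115. None of the day 3 arrays detected it (at least 1.68-fold lower), and 1 of the 4 day 5 arrays did. Its limma contrast of day 3 with day 1 (adjusted p = 5.76e-06) was again not made on the bound, and 3 of the 4 day 3 values lay at the floor. Whether the passengers and the guide changed unequally was not tested, since the later arrays mostly did not detect the passengers.

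The passenger of miR-30a went the other way. No array of days 1 and 3 detected miR-30a*, with signals of -1.8 to 28.3, whereas 3 arrays of day 5 did, with signals of 93.4 to 100. The exception was day 5 replicate 4, at -11.9, the array with the fewest detected miRNAs. On normalized values the day 5 mean of miR-30a* was 2.92-fold above day 3, with day 3 set as for miR-30c-2*. This mean includes replicate 4, whose normalized value was 5.78 without detection, so the fold is not a lower bound. The limma contrast of day 5 with day 3, made on the normalized values themselves, missed the threshold (adjusted p = 0.0105). No fold is given against day 1, whose normalized values lay near the floor of 1 signal unit. In the case of miR-30b*, 2 arrays of day 1 and 2 of day 5 detected it, and its normalized change was 0.42 ± 0.58 (SE, adjusted p = 0.554). Another miRNA with the seed of the guides, miR-384-5p (mmu-miR-384-5p: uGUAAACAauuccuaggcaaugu), was detected on no array.

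Some miRNAs outside the family followed its members closely over the 12 arrays. Of 143 other miRNAs detected on all arrays, miR-500 and miR-532-5p had the highest Pearson r with miR-30a (0.98 and 0.97), with day 5 against day 1 changes of 1.20 and 1.19 beside its own 1.27. For miR-30b these were miR-100 and miR-324-5p (0.99 and 0.98), which rose by more, 2.66 and 1.84. For miR-30c they were miR-350 and miR-21 (0.98 and 0.96), and for miR-30d miR-21 and miR-361 (0.96 and 0.95). For miR-30e, miR-500 and miR-22 came closest (0.93 for both), with changes of 1.20 and 0.92. These coefficients describe 12 arrays that fall into 3 days and share 1 normalization.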

How the data were processed

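One array was hybridized for each of the 12 cultures and read in 1 color. The scanner files deposited by the authors (Feature Extraction 9.5.3.1) hold intensity values with the background subtracted and not normalized between arrays, and a mark for detection. A second table deposited by the authors, in log2 units and quantile normalized by them, served as an alternative. Here the total gene signals of all 334 mouse miRNAs with detection on any array were quantile normalized (limma 3.58.1, R 4.3.3), raised to a floor of 1 and converted to log2. A mean per day was fitted with lmFit and eBayes, and p-values were adjusted over the 334 miRNAs (Benjamini-Hochberg, threshold 0.01). Members were compared within arrays by exact permutation. Scripts were tested on simulated data. Figures used Python 3.11.15 and matplotlib 3.10.9. Alternatives changed the filter, normalization, signal, floor, test, threshold and block, or left out 1 array. The fit of slide 1 alone was added after the data were seen.

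The members and lists were chosen with earlier results of these data known. Named beside the members were their passenger strands, miRNAs of the same seed, and for each member the 2 other miRNAs of highest Pearson r among those detected on all arrays. By day 5, both erythroid markers on the array (miR-144 and miR-451, with miR-486 and miR-144* not used here) had fallen, as had 1 of 3 lymphoid ones (miR-181a, miR-181b and miR-150), the granulocytic miR-223 and the megakaryocytic miR-126-3p. Of the 4 myeloid ones (miR-21, miR-142-5p, miR-142-3p and miR-223) 1 had fallen, which was again miR-223. Of the 5 stromal markers (miR-214, miR-199a-5p, miR-145, miR-199a-3p and miR-143) 4 had risen. Precision is limited by the 4 arrays per day.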

Additional observations from a re-analysis of the deposited data

Results flagged for a closer look

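In 1 of 20 groups of 4 arrays with detection on all of them (5 members and miR-30e* at 3 days, and the miR-30c passengers at day 1), 1 array stood far from the others by Dixon's criterion, about as many as chance gives (1 in 20 groups). This was miR-30e* at day 5, where replicate 4 had a normalized value of 8.12 and the other 3 arrays lay between 8.50 and 8.58. The gap made up 0.835 of the range, above the 95% critical value for 4 values.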

How the results depend on the processing

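Of the single changes of members, 332 kept their direction and side of the threshold under the alternatives, 43 lost the call, 23 gained one and 12 reversed. All reversals concerned day 3 against day 1. Without normalization these were -0.49 (miR-30a), -0.33 (miR-30b), -0.74 (miR-30c), -0.51 (miR-30d) and -0.88 (miR-30e). With detection on all 12 arrays they were -0.035 (miR-30a) and -0.051 (miR-30e), and with the 75th percentile of miRNAs detected on all arrays -0.010 (miR-30c) and -0.16 (miR-30e). For miR-30e the 75th percentile of all mouse miRNAs gave -0.089, the median -0.13 and the summed signal -0.12. Counts of members follow for the 3 days, the 2-fold criterion, day 5 against day 1, day 3 against day 1 and day 5 against day 3, with 5, 1, 5, 3 and 1 as reported. The 75th percentile of miRNAs detected on all arrays gave 2, 0, 2, 1 and 1. The 75th percentile of all mouse miRNAs gave 3, 2, 3, 0 and 1, the median 4, 2, 3, 0 and 3, the summed signal 4, 2, 4, 1 and 3, and no normalization 5, 2, 2, 4 and 5. The 4 calls of day 3 against day 1 without normalization (miR-30a, miR-30c, miR-30d and miR-30e) were all falls, opposite to the 3 reported rises. Detection on all 12 arrays gave 5, 0, 5, 1 and 3, and no filter 4, 1, 5, 2 and 1. Detection on all arrays of a day, normexp and an intensity trend gave 5, 1, 5, 4 and 2 each, and an adjusted p under 0.05 gave 5, 1, 5, 4 and 3. The processed spot signal, deposited values and floor of 0.1 gave the counts as reported, as did the analysis of variance for the first 2, and the slide 1 arrays alone gave 4 for day 5 against day 1. Leaving out 1 array gave 4 to 5, 1, 4 to 5, 1 to 4 and 1 to 2 in the same order. The day 3 against day 1 call of miR-30a was lost without 7 of the 12 arrays in turn (0.33 to 0.42) and that of miR-30d without 6 (0.44 to 0.53). Pairs of members that differed numbered 0 as reported, 20 under the 4 scalings and without normalization, 16 at an adjusted p under 0.1, and 0 to 18 with 1 array left out (18 without day 1 replicate 3 or 4). No guide and passenger comparison passed in any setting. All were of miR-30e with miR-30e*, and 1 of them alone could not have passed. Its smallest possible exact p, 0.0286, adjusts to 0.0857, so equal change of the strands is not shown. The cause of these changes was not tested.

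Replicate numbers were used as a block as well. Deviations of same-numbered arrays correlated between days with r of 0.087 to 0.78, and 11 of 12 pairs were over 0.1. Between arrays of other numbers r was -0.63 to 0.43, with 9 of 36 pairs over 0.1. Of the 12 arrays, 9 correlated best with their own number. Same-numbered arrays were thus more alike, and the reported fit, which has no block, leaves this out. With the replicate block 4, 1, 4, 3 and 2 members were called in the order above. The change of miR-30c from day 1 to day 5 lost its call (adjusted p = 0.0125) and that of miR-30e from day 3 to day 5 gained one (adjusted p = 0.00689). Signal limits the passenger strands, which lay near background.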
